A study of Homo sapiens with 6 samples.

Results

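SMAD4 and 9 other genes of band 18q21, on the long arm of human chromosome 18, were followed in RNA of small extracellular vesicles. The 10 genes, chosen by name, were SMAD4, ELAC1, ME2, MEX3C, DCC, MBD2, SMAD2, SMAD7, MYO5B and TCF4, and all 10 were found among the 38167 gene symbols counted. The vesicles had been isolated by insulator-based dielectrophoresis, which holds particles in an electric field, and their total RNA was sequenced. The library titles, however, call this RNA EV (extracellular vesicle) mRNA. The vesicles came from spheroids of Cal27, an established line from a squamous carcinoma of the tongue. Soft spheroids were held in 3 mg/mL Matrigel, a basement membrane gel, and stiff spheroids in 12 mg/mL. Both groups were sampled at day 14 and were otherwise the same line with no other agent named, so any property of the Cal27 genome is common to all libraries. There were 3 libraries per group, which the labels call biological replicates of this 1 line. Whether they came from separate cultures was not given, so the p-values measure the spread between these libraries. The counts summed to between 2445498 and 2977837 per library.

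SMAD proteins carry signals of the transforming growth factor beta and bone morphogenetic protein families from receptors at the cell surface to the nucleus. Receptor kinases phosphorylate SMAD2 and its relatives, these join SMAD4, the shared partner, and the complex acts on target genes, while SMAD7 blocks the receptors. The long arm of chromosome 18 is often lost in carcinomas of the mouth and of other epithelia, and SMAD4 and DCC are its best known candidate tumour suppressors. The read count per kb of exon was used here to set these genes beside genes of other chromosomes, as a gauge of gene copies. DNA copy number itself was not measured in these libraries, and what sets the count per kb was not tested.

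Counts per kb depend on base composition in these libraries, and 3 coding stretches show the range that the genes span. Each is 120 bases of 1 coding exon, chosen because its G and C content is closest to that of all exons of its gene. They are written 5′ to 3′ on the gene's strand (GENCODE release 29 transcripts, GRCh38) with G and C in capitals. The stretch of SMAD4 lies on the plus strand at chr18:51047048-51047167, that of SMAD2 on the minus strand at chr18:47896540-47896659 and that of SMAD7 on the minus strand at chr18:48949865-48949984.
SMAD4: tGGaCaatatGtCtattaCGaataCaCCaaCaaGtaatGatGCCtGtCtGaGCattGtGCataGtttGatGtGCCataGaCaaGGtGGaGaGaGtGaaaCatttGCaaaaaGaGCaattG
SMAD2: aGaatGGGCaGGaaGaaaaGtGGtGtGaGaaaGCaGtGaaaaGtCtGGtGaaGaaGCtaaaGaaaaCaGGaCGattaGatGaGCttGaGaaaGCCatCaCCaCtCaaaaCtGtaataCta
SMAD7: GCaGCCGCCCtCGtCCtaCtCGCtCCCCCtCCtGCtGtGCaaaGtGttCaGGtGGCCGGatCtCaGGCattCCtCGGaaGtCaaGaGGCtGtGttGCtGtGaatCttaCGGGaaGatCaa
G and C made up 39.2% of the SMAD4 stretch, 40.8% of the SMAD2 stretch and 57.5% of the SMAD7 stretch. Over all annotated exons the 10 genes ran from 38.3% in ME2 to 57.7% in SMAD7. Each gene was therefore set against protein-coding genes of the other autosomes whose exon GC content lay within 2 percentage points of its own. The median of these reference genes was 10.5 counts per kb at the GC content of SMAD4 and 23.6 at that of SMAD7, as means over the 6 libraries. The ratio of a gene's counts per kb to this median is called its level ratio below.

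With the length of all annotated exons, all 10 genes lay below the median of their reference genes. The level ratios, averaged over 6 libraries, ran from 0.301 for TCF4 to 0.749 for MBD2, with a median of 0.569 over the 10 genes. Every one of the 60 values, 10 genes in 6 libraries, was below 1. Of the 17779 protein-coding genes of other autosomes, 49.2% had a mean ratio below 1, which the use of a median nearly fixes. Among its own 2257 to 3038 reference genes each of the 10 stood at a percentile between 1.44, for TCF4, and 24.8, for MBD2. A single gene is a coarse gauge, since the reference genes of SMAD4 alone ran from 5.61 counts per kb at their 10th percentile to 18.5 at their 90th.

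**Figure D1:**
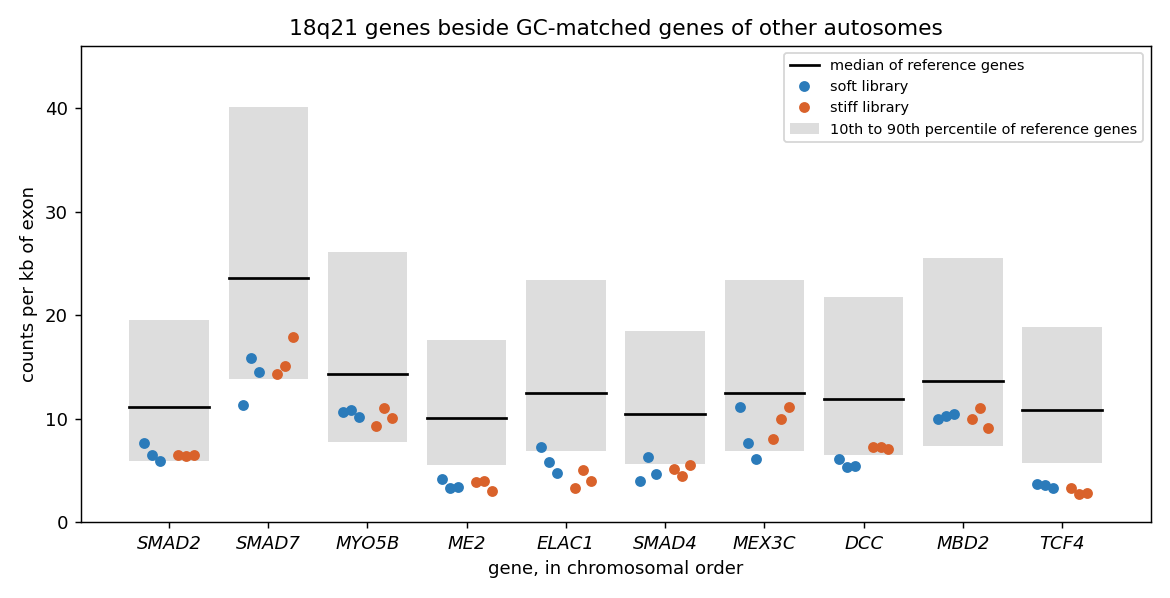
Counts per kb of annotated exon (y axis, linear) for the 10 genes in chromosomal order, with 1 point for each of the 3 soft and 3 stiff libraries. Black bars are the mean over libraries of the median of GC-matched genes of other autosomes and grey boxes run from the 10th to the 90th percentile of those genes' mean levels; all points lie below the black bars, and all points of TCF4 and ME2 lie below the boxes.

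The length assigned to a gene moved several of these ratios. The authors' gene annotation was not given in the sources used here. A second length was therefore taken, after the data were seen, from transcripts that GENCODE pairs with a RefSeq messenger. It was used for the 10 genes and the reference genes alike. With it, 9 of the 10 genes had level ratios from 0.464 ± 0.0391 for SMAD2 to 0.597 ± 0.0183 for MYO5B (SD, n = 6 libraries). The exception was MEX3C, at 1.08 ± 0.243. TCF4 moved from 0.301 to 0.538 as its length fell from 27828 to 11600 bp. MEX3C moved from 0.721 to 1.08 as its length fell from 7481 to 3781 bp. With the RefSeq-paired length the median of the 10 was 0.536, and 56 of 60 values were below 1; the exceptions were 4 libraries of MEX3C. Of the 17594 genes of other autosomes with such a length, 49.8% were below 1. The length of the longest transcript, planned beforehand, gave a wider band for the 9 genes other than MEX3C, from 0.485 for SMAD2 to 0.78 for TCF4. MEX3C was again at 1.08.

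**Figure D2:**
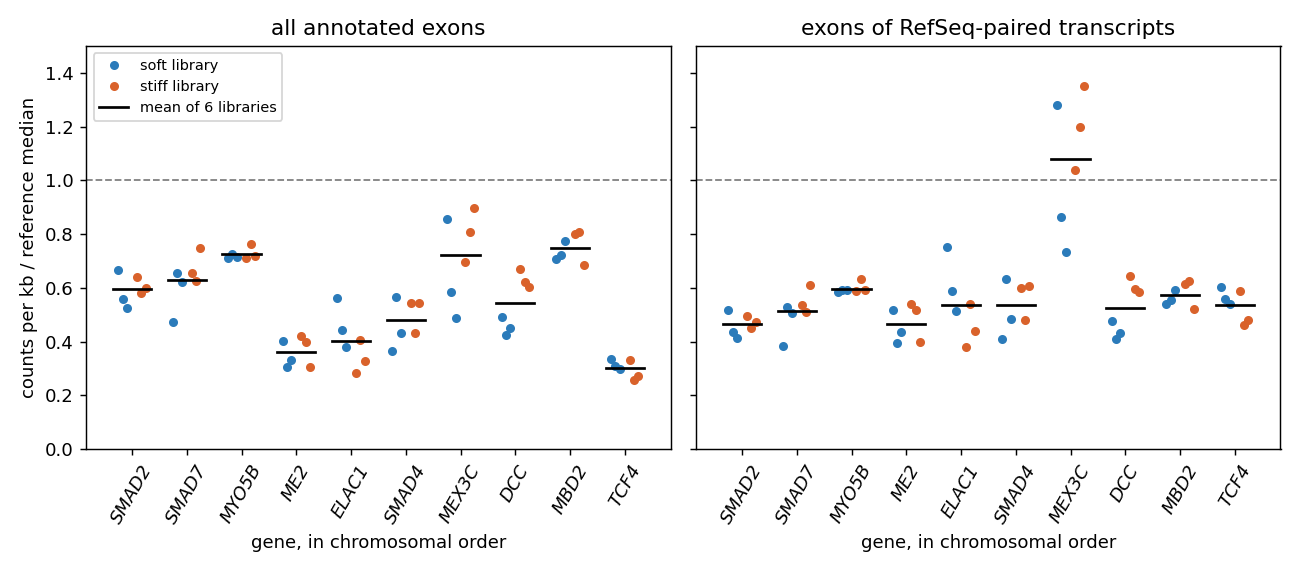
Level ratio (counts per kb over the median of GC-matched genes of other autosomes, y axis) for each gene in each of 6 libraries, with all annotated exons on the left and RefSeq-paired exons on the right. Short bars are means of 6 libraries and the dashed line is a ratio of 1; on the right all genes but MEX3C have means between 0.464 and 0.597.

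SMAD4, the partner that all receptor-driven SMADs share (chromosome 18, 51028394 to 51085045, GRCh38, plus strand), was read 52, 83 and 61 times in soft replicates 1, 2 and 3, against 68, 59 and 73 in stiff replicates 1, 2 and 3. The lowest and the highest count both came from soft libraries, and the stiff values lay between them. Over its 13123 bp of exon this was 4.98 ± 1.22 counts per kb in soft and 5.08 ± 0.541 in stiff (SD, n = 3 each). The level ratio was lowest in soft replicate 1, at 0.363 (95% exact Poisson interval of the count, 0.271 to 0.476), and highest in soft replicate 2, at 0.566 (0.451 to 0.701). These intervals cover counting error only, and the libraries carry no molecular identifiers that would tell PCR copies apart.

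SMAD2, which receptors phosphorylate (47808957 to 47931146, minus strand), was counted most often of the 10 and has the longest exons, 36366 bp. Soft libraries held 277, 238 and 215 of its counts, stiff libraries 235, 231 and 237. The stiff libraries were close together and lay inside the soft range. Per kb this was 6.69 ± 0.862 in soft and 6.44 ± 0.0840 in stiff, and the level ratio over 6 libraries was 0.595 ± 0.0518. SMAD7, the inhibitor (48919853 to 48952052, minus strand), was at 57, 80 and 73 counts (soft) and at 72, 76 and 90 (stiff). Soft replicate 1 was the lowest, and the groups overlapped. SMAD7 had the highest counts per kb of the 10, 14.8 ± 2.15 over 6 libraries, and its level ratio was 0.630 ± 0.0893 against reference genes that also had more counts per kb.

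ELAC1 and ME2 lie just before SMAD4 on the same strand. ELAC1, a tRNA-processing endonuclease (50967991 to 50988121), gave 29, 23 and 19 counts under soft conditions, with 13, 20 and 16 under stiff ones. These were the lowest counts of the 10 genes over a short 3970 bp of exon, and the groups overlapped. ME2, the mitochondrial malic enzyme (50878734 to 50954257), gave 68, 53 and 56 counts (soft), against 63, 65 and 49 (stiff), which overlap. Per kb ME2 stood at 3.63 ± 0.489 in soft and 3.63 ± 0.537 in stiff. Level ratios were 0.4 ± 0.0976 for ELAC1 and 0.361 ± 0.0521 for ME2 (SD, n = 6). The ratios of these neighbours and that of SMAD4, 0.480 ± 0.0822, had overlapping ranges over libraries.

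MEX3C, an RNA-binding ubiquitin ligase next after SMAD4 (51174550 to 51218304, minus strand), ranged over 83, 57 and 46 counts in soft replicates, with stiff replicates at 60, 75 and 83. Its highest count was shared by a soft and a stiff library. Its spread was the widest relative to counting error, with a dispersion index (squared deviation over expected count, per degree of freedom) of 3.34, against a median of 1.41 over all genes with a mean count of at least 10. MYO5B, a myosin motor of vesicle recycling (49822813 to 50195093, minus strand), was the steadiest. The soft replicates gave 111, 113 and 107 counts, the stiff ones 98, 115 and 106, an index of 0.0797. MBD2, a reader of methylated DNA (54151601 to 54224788, minus strand), was also steady, with soft counts of 58, 60 and 61 beside stiff counts of 58, 64 and 53. Level ratios with all annotated exons were 0.721 ± 0.161 for MEX3C, 0.724 ± 0.02 for MYO5B and 0.749 ± 0.051 for MBD2 (SD, n = 6). Those of MEX3C covered the whole range of the other pair.

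DCC, a netrin receptor of growing axons (52340172 to 53535903, plus strand), was counted 80, 70 and 71 times in soft replicates, and 96, 96 and 93 times in stiff ones. After scaling for library size it was the only one of the 10 whose groups did not overlap, all stiff values being higher, where 14.1% of all genes tested had groups apart in either direction. Per kb it stood at 5.60 ± 0.419 in soft and 7.22 ± 0.132 in stiff, and its level ratio was 0.455 ± 0.0329 in soft and 0.632 ± 0.0345 in stiff. TCF4, a basic helix-loop-helix transcription factor (55222331 to 55664787, minus strand), was counted 104, 99 and 92 times in soft replicates but 91, 77 and 79 times in stiff ones. Raw counts of TCF4 were all lower in stiff, but after scaling for library size the groups overlapped, at 34.7 to 38.1 CPM (counts scaled to the normalized library size) in soft and 28.9 to 37.4 in stiff.

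In order of counts per kb of all annotated exons the genes ran from TCF4 through ME2, SMAD4, ELAC1, DCC, SMAD2, MEX3C, MBD2 and MYO5B to SMAD7. Each neighbour in this order overlapped the next over the 6 libraries, except that SMAD7, at 11.3 or more, lay above MYO5B, at 11 or less. With the RefSeq-paired length ME2 was lowest, at 6.27 ± 0.792, and MEX3C highest, at 17.8 ± 4.04. Both ends of this second order overlapped their neighbours over the 6 libraries, ME2 with SMAD2 and MEX3C with SMAD7. DCC, best known from neurons, stood between ELAC1 and SMAD2 in the first order and between TCF4 and ELAC1 in the second.

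Summed, the 10 genes had 801 to 919 counts per library where their reference medians gave 1511 to 1740. The ratio of observed to expected was 0.538, 0.503 and 0.478 in soft replicates 1 to 3 and 0.565, 0.534 and 0.542 in the stiff ones. Exact 95% Poisson intervals of the 6 sums ran from 0.446 at the lowest to 0.604 at the highest. With the RefSeq-paired length the 6 ratios were 0.489 to 0.571. Without MEX3C they were 0.479 to 0.552 with that length. The soft mean was 0.506 ± 0.0298 and the stiff mean 0.547 ± 0.0162 with all exons, and the groups overlapped.

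The low level was not limited to the 10 genes but extended over most of the chromosome beyond its first 20 Mb. Over 10 Mb steps of chromosome 18, counted from the end of its short arm, the median level ratio was 1.31 (38 genes) from 0 to 10 Mb and 1.38 (27 genes) from 10 to 20 Mb. It was 0.694 (29 genes) from 20 to 30 Mb and 0.699 (36 genes) from 30 to 40 Mb. The steps from 40 to 50 and from 50 to 60 Mb, which hold 2 and 8 of the genes described here, had medians of 0.595 (31 genes) and 0.592 (38 genes). The step from 60 to 70 Mb was alike at 0.583 (29 genes), and that from 70 to 80 Mb stood at 0.873 (24 genes). Beyond 80 Mb only 4 genes remained, at 0.844. In single libraries the step from 10 to 20 Mb ran from 1.34 to 1.48 and that from 20 to 30 Mb from 0.649 to 0.801, so these neighbours did not overlap. With the RefSeq-paired length these medians were 1.42 and 1.44 for the first 20 Mb, and 0.535 and 0.570 for the steps that hold the 10 genes. That length put the step from 70 to 80 Mb at 0.963, near the reference, and the genes beyond 80 Mb at 0.767. Genes of a chromosome are not independent, and no test was made between steps.

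**Figure D3:**
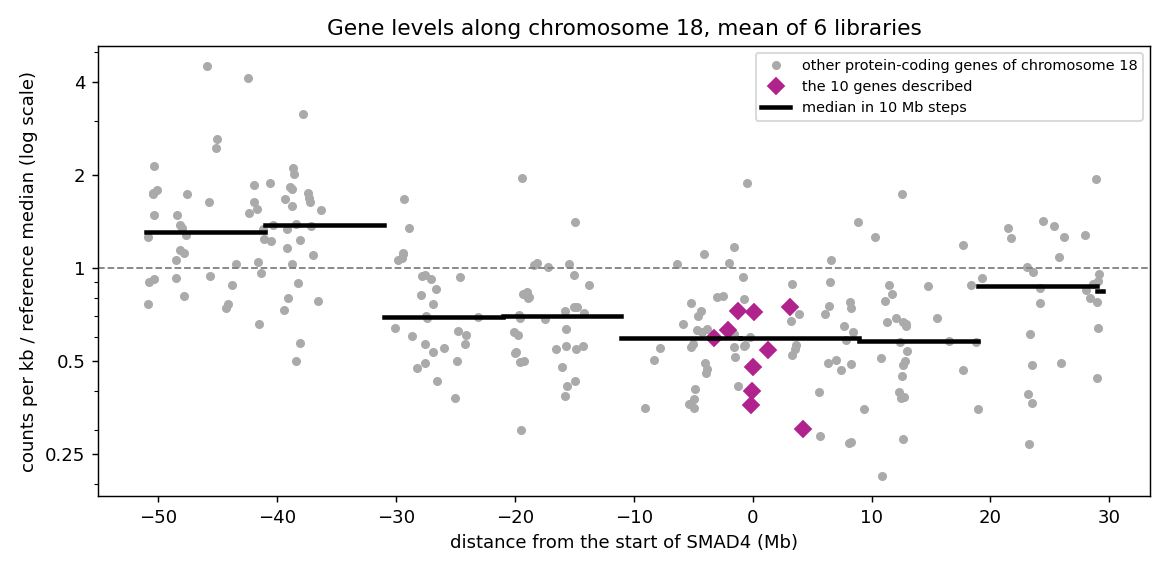
Level ratio (y axis, log scale, mean of 6 libraries, all annotated exons) of the 256 protein-coding genes of chromosome 18 against distance from the start of SMAD4 (x axis, Mb). Diamonds are the 10 genes described, grey points the other genes and black bars medians in 10 Mb steps, which fall from 1.38 to 0.694 between the second and the third step.

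The 4 protein-coding genes nearest to SMAD4 on each side were MAPK4, MRO, ME2 and ELAC1 before it, and MEX3C, DCC, MBD2 and POLI after it. ME2, ELAC1, MEX3C, DCC and MBD2 are among the 10 genes, so their mean level ratios, 0.361 to 0.749, were already given above. Only MRO, POLI and MAPK4 add further values. MRO stood at 0.598 ± 0.183 and POLI, a DNA polymerase that copies past damaged bases, at 0.673 ± 0.0581 (SD, n = 6). MAPK4, an atypical mitogen-activated protein kinase (50560078 to 50731824), stood at 1.88 ± 0.169 and had 224 to 296 counts per library. With the RefSeq-paired length MAPK4 was at 2.19 ± 0.195.

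Among the 22 autosomes, chromosome 18 had the second lowest median level ratio. The median of its 256 protein-coding genes was 0.759, and 0.774 for the 246 genes other than those described. Only chromosome 4, at 0.653, was lower, and chromosome 9, at 1.36, was highest. With the RefSeq-paired length chromosome 18 stood at 0.787 and was again second lowest. In single libraries chromosome 18 was between 0.704 and 0.740 in soft and between 0.770 and 0.806 in stiff, groups that did not overlap. This difference of 0.0629 was the largest in size of the 22 autosomes with all annotated exons. With the RefSeq-paired length the soft and stiff means were 0.747 and 0.805 for chromosome 18, and 1.05 and 1.11 for chromosome 13. Those 2 differences were too close in size to rank. Whether the difference of chromosome 18 stands apart from those of the other autosomes was not tested. Stiff libraries lay wholly above soft ones for 5 autosomes and wholly below for 4.

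**Figure D4:**
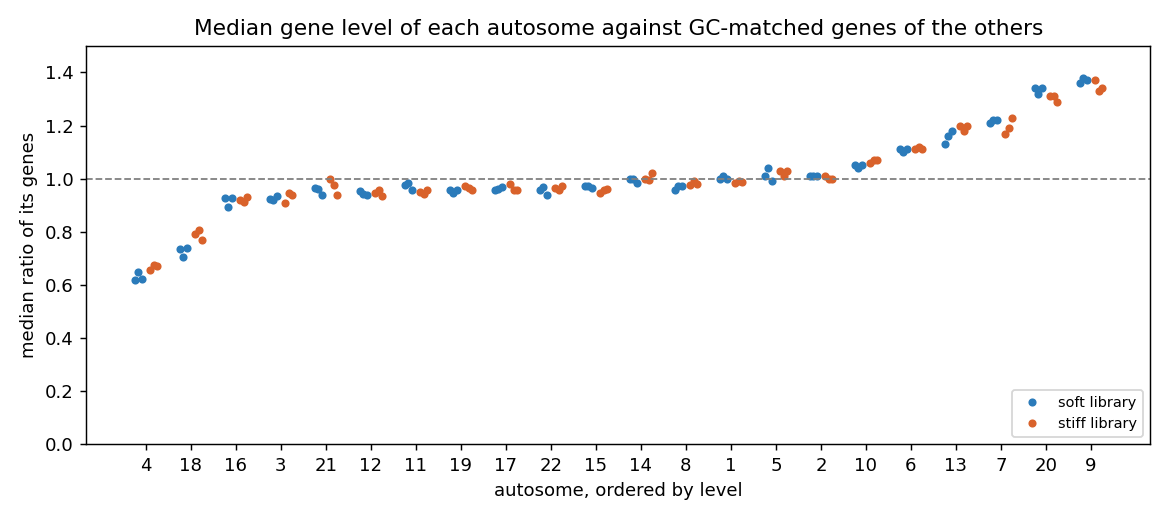
Median level ratio (y axis) of the protein-coding genes of each autosome (x axis, ordered by level), with 1 point for each of 3 soft and 3 stiff libraries. Chromosomes 4 and 18 lie below all others in every library, chromosome 18 between 0.704 and 0.806.

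For comparison, 2 other loci often altered in squamous carcinoma were read in the same way. At 11q13, CCND1, FGF19, ANO1, FADD, PPFIA1 and CTTN had a median level ratio of 1.63, from 0.875 for PPFIA1 to 2.44 for ANO1. At 9p21, CDKN2A, CDKN2B, MTAP and DMRTA1 had a median of 1.36, from 0.326 for MTAP to 1.43 for CDKN2B. The medians of all protein-coding genes were 0.95 for chromosome 11 and 1.36 for chromosome 9, so with all annotated exons the 9p21 median equalled that of its chromosome. These spreads again depended on length, MTAP reaching 0.718, CDKN2A 3.43 and PPFIA1 1.33 with the RefSeq-paired one. The medians were then 1.4 at 11q13 and 1.05 at 9p21, beside 1.05 for chromosome 11 and 1.32 for chromosome 9. The 9p21 median thus lay below that of its chromosome with this length.

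Genes that squamous cells are not known to transcribe had counts in every library too. A list of 12 such genes of other tissues had a median level ratio of 0.983, from 0.419 to 1.71. Single genes of it lay as low as the 18q21 genes, such as ALB of liver at 0.539 ± 0.147 and GFAP of glia at 0.553 ± 0.0777 (SD, n = 6). AFP, the lowest of the list at 0.419, and ALB lie on chromosome 4, whose own median was 0.653. GFAP lies on chromosome 17, whose median was 0.974. The 8 markers of squamous epithelium, such as KRT5 and TP63, had a median of 1.08, from 0.691 to 1.48. The lowest of the 8, DSG3, lies on chromosome 18 itself, in the step from 30 to 40 Mb, whose median was 0.699. Markers of fibroblasts (5 genes), immune cells (4) and endothelium (3) had medians of 0.667, 0.948 and 0.887, and 0 of these 20 markers was at 0 counts. Summed squamous markers ran from 215 to 222 CPM in soft and from 230 to 252 in stiff libraries, fibroblast markers from 211 to 230 and 212 to 232, immune markers from 75.3 to 87.7 and 74.7 to 84.0, and endothelial markers from 148 to 183 and 148 to 162. Their part in the results was not tested. The squamous markers did not stand clear of the other lists, so the labelled cell type could not be read from them. In RNA pooled from vesicles, fewer vesicles of a cell type and less RNA per vesicle cannot be told apart.

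None of the 10 genes passed the threshold between stiff and soft libraries. All 10 passed the filter on low counts, and edgeR's quasi-likelihood test called 0 of them at an adjusted p under 0.05, where it called 0.451% of the 31074 genes tested. DESeq2 called 0 of the 1 that it gave an adjusted p, SMAD2, and limma-voom called 0. At an unadjusted p under 0.05 there was 1 of the 10, DCC, against 9.51% of all genes. For DCC the mean of 3 soft libraries was 27.2 ± 2.02 CPM and that of 3 stiff libraries 37 ± 2.2 CPM (SD). On the log2 scale stiff exceeded soft by 0.44 ± 0.16 (SE), with an adjusted p of 0.229 by edgeR. All 3 stiff libraries lay above all 3 soft ones, as they did for 7.38% of all genes tested. The interval of its fold change was 0.14 to 0.75 on the log2 scale (95%, from the SE).

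SMAD4 had 24.0 ± 5.57 CPM in soft and 26.0 ± 3.30 in stiff libraries, a log2 fold change of 0.11 ± 0.18 (edgeR adjusted p = 0.913). Its 95% interval, -0.25 to 0.46, leaves room for changes of that size. The interval of SMAD2 was the narrowest, -0.17 to 0.21 around 0.02, and that of ELAC1, with the fewest counts, the widest, -1.09 to 0.17 around -0.46. For SMAD7 the log2 fold change was 0.25 ± 0.17 and for MEX3C 0.30 ± 0.18, with adjusted p = 0.669 and 0.617 by edgeR. TCF4 had a value of -0.18 ± 0.15 (adjusted p = 0.762), and scaling by library totals alone, which moved the median of all genes to -0.273, gave -0.45 with an adjusted p of 0.0385. The median over the 10 genes was 0.06, with 8 above 0, against -0.0048 and 15264 of 31074 for all genes.

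**Figure D5:**
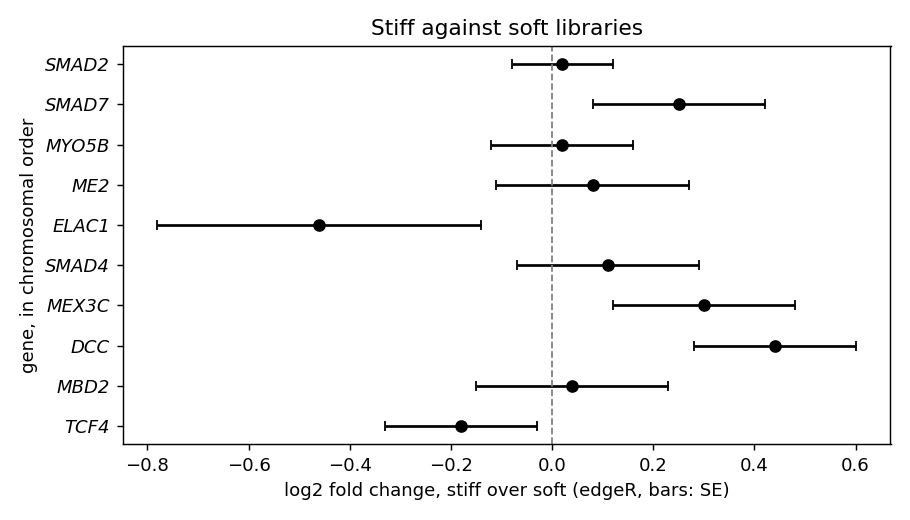
Log2 fold change of stiff over soft libraries (x axis) for the 10 genes in chromosomal order (y axis), with points from edgeR and bars of 1 SE. DCC, at 0.44, and ELAC1, at -0.46, lie farthest from 0, and no gene passed the threshold.

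Other genes of SMAD signalling also gave no call. Of 49 genes in a list of ligands, receptors, SMADs, partners and targets, 0 passed by edgeR, where 0.451% of all genes tested did, and 4 had an unadjusted p under 0.05, where 9.51% of all genes did. Both counts were near these shares. The median log2 fold change was 0.02, against -0.0048 over all genes. DESeq2 and limma-voom also called 0 of them. The DESeq2 filter on mean count leaves genes without an adjusted p, so its 0 need not cover the whole list. Without that filter DESeq2 called 0 as well. The ligand BMP6 was at 72, 107 and 90 counts in soft replicates, with 111, 118 and 111 in stiff ones (log2 fold change 0.41 ± 0.14, edgeR adjusted p = 0.221). The target ID2, an inhibitor of helix-loop-helix factors, was at 32, 25 and 28 counts in soft replicates, against 15, 13 and 15 in stiff ones (log2 fold change -0.90 ± 0.32, adjusted p = 0.225). CDKN2B, a cell cycle inhibitor, had log2 fold change -0.39 ± 0.17 and the receptor BMPR2 -0.28 ± 0.13 (edgeR adjusted p = 0.4 and 0.452). Of the 8 SMAD genes 5 had a fold change above 0, of 11 receptors 9, of 10 ligands 7, of 11 partners and inhibitors 5 and of 9 targets 1.

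The genes whose CPM followed that of SMAD4 most closely over the 6 libraries lay on other chromosomes or, for LOC107984638, had no position in the annotation used. Among 15770 genes with a mean count of at least 50, the highest Pearson correlations of log2 CPM were those of CPO (0.989, chromosome 2), MLLT3 (0.983, chromosome 9), DCAKD (0.980, chromosome 17), LOC107984638 (0.979) and DIAPH1 (0.978, chromosome 5). A value of 0.9 or more was reached by 110 genes, 0.698% of them, and the points share library and depth. ELAC1, with 13 to 29 counts per library, was below that mean count and was not compared. Of the 8 others described here SMAD7 came closest, at 0.794, and ME2 was lowest, at -0.541.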

How the data were processed

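RNA of vesicles in 6 libraries was read as gene counts. The deposited values were raw counts per gene symbol, with no normalization by the authors. Trim Galore 0.4.2, cutadapt 1.9.1, FastQC 0.11.7, STAR 2.6.1e, featureCounts 1.6.2, DESeq2 1.26.0 and hg38 are named, without roles, per the submitters' processing notes. Not given in the sources used here were the gene annotation, the strand setting and how reads matching more than 1 gene were handled, so reads of overlapping antisense genes may be included. Replicate numbers came from the titles, since 2 stiff libraries share a number in the descriptions.

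Exon lengths and GC content came from GENCODE release 29 (GRCh38), which held 67.2% of the symbols, and 18035 autosomal protein-coding genes entered the levels. Levels have no test. The 2 groups were compared in R 4.3.3 with edgeR 4.0.16 (TMM, filterByExpr, robust quasi-likelihood fits, two-sided, Benjamini-Hochberg over all genes, threshold 0.05). The SE is the fold change over the root of F. In simulated data for 31074 genes of this comparison, 35.4% of planted 1.5-fold changes, 81.8% of 2-fold and 100% of 4-fold ones were called, while false calls made up 6.58%. DESeq2 1.42.0 and limma 3.58.1 (voom) were alternatives.

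The genes named were the 10, the 4 nearest to SMAD4 on each side, the 5 most like it, the SMAD list genes of smallest p and 2 comparison loci. The members and lists were chosen with earlier results of these data known. RefSeq-paired lengths were added after the data were seen.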

Additional observations from a re-analysis of the deposited data

How the results depend on the processing

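The median level ratio of the 10 genes was 0.569 and stayed within the spread between libraries under 8 alternatives of GC window, length, reference genes and exon number, from 0.536 to 0.614, but was 0.393 without GC matching, where SMAD7 stood at 0.899 and TCF4 at 0.196. The chromosome 18 median of 0.759 was 0.612 without GC matching, 0.8 with the length of the longest transcript and 0.72 against pooled reference genes. Leaving out 1 library gave 0.552 to 0.585 for the 10 genes and 0.747 to 0.762 for chromosome 18.

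Scaling by library totals alone called 4194 genes of all, 1 of the 10 (TCF4, -0.45 on the log2 scale) and 9 of the SMAD list. It turned the log2 fold changes of SMAD4 (-0.16), ME2 (-0.19), MBD2 (-0.22), SMAD2 (-0.25), SMAD7 (-0.013) and MYO5B (-0.25), none of them called. Other settings called 0 of the 10 and 0 of the SMAD list. The 140 calls over all genes became 67 with DESeq2, 43 with DESeq2 without its filter on mean count, 91 with limma-voom and 58 after GC correction, which tested fewer genes. Leaving out 1 library gave 60 to 136 calls, 77 of them with soft replicate 2 left out and 85, 60 and 75 with stiff replicate 1, 2 or 3 left out, where fewer samples entered. Over those fits the log2 fold change ranged from -0.034 to 0.30 for SMAD4, -0.013 to 0.21 for ME2, -0.0017 to 0.12 for MBD2, -0.04 to 0.12 for SMAD2 and -0.012 to 0.04 for MYO5B, so that these signs were not settled. The cause of these shifts was not tested.

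Deviations of soft and stiff libraries with the same replicate number correlated at 0.002, 0.003 and -0.004. Not every library correlated best with its own number. At this depth counting error alone can bring such correlations near 0, so whether the numbers pair the libraries was not settled. A replicate block gave 173 calls over all genes and 0 of the 10. With 13 to 29 counts per library, ELAC1 limits what can be seen at this depth.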
